A study of Homo sapiens with 6 samples.

Results

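The Notch pathway was read in 2 neuroblastoma cell lines through 10 genes: the receptors NOTCH1, NOTCH2 and NOTCH3, the ligands DLL1, DLL3, JAG1 and JAG2, and the target-gene family members HES1, HES6 and HEY1. They were taken by symbol, and all 10 were found among the 25370 rows of the count table. RNA was counted in BE2C cells made to express LMO1 (2 libraries), in vector-control BE2C cells (2 libraries), in parental BE2C cells without either construct (1 library) and in Kelly cells (1 library). The parental and Kelly libraries were registered in a separate set from the LMO1 and vector libraries. Their total counts were 48663459 and 59512958, against 18737591 to 25070942 in the LMO1 and vector libraries. Comparisons of parental or Kelly cells with LMO1 or vector libraries thus cross the sets. The part of the set in such differences was not tested. BE2C and Kelly are human neuroblastoma lines with MYCN amplification, and the LMO1 protein is a transcriptional co-regulator built of LIM domains. The sources used here do not state the promoter driving LMO1, whether the modified cells were clones or pools, or whether replicate libraries represent separate cultures. Every p-value is thus set against library-to-library spread alone, which may be technical and in the edgeR fit was mostly shared across genes.

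Notch signalling passes between touching cells. A ligand on one cell binds a Notch receptor on its neighbour, the receptor is cut by an ADAM protease and then by gamma-secretase, and the freed intracellular part joins the DNA-binding protein RBPJ and a MAML co-activator to switch on HES and HEY genes, which encode repressors of the basic helix-loop-helix class. HES1 and HEY1 are such repressors, and HES6 binds HES1 and counters it. In sympathetic precursors and neuroblastoma, HES repressors restrain neuronal differentiation, and forced NOTCH3 activity is known to move neuroblastoma cells from an adrenergic toward a mesenchymal state.

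The labels were checked first. LMO1 had 6.55 and 5.85 CPM (read counts scaled to a common library size with edgeR's TMM factors) in the LMO1 libraries and 1.05 and 0.926 CPM in the vector libraries, with 1.93 CPM in the parental and 94.1 CPM in the Kelly library. Markers of adrenergic neuroblastoma, 10 genes, summed to between 6326 and 6919 CPM in all 6 libraries, a sum carried mostly by CHGA and MYCN. Single markers varied widely. DBH, an enzyme of noradrenaline synthesis, was at 89.8 and 78.9 CPM with LMO1, 13.4 and 15.0 CPM with vector, 35.4 CPM in parental cells and 873 CPM in Kelly. With LMO1, 3 of the 10 were called higher (DBH 5.95-fold, TH 3.57-fold and ISL1 1.21-fold) and 4 lower. Among all 15480 genes tested, 15.9% were called higher and 15.1% lower. The 6 Schwann markers summed to 5.03 to 7.25 CPM, the 5 endothelial markers to 1.51 to 3.51 CPM and the 5 haematopoietic markers to 6.39 to 8.85 CPM. CDH19, CD3E and HBB had no read in any library. The replicate libraries of a group were not repeats of one library, since their counts gave a chi-square of 2.91 (LMO1) and 2.75 (vector) per degree of freedom, so each counted separately. Of the 6 fibroblast markers 5 were tested. DCN and LUM were called 1.79-fold and 2.08-fold higher with LMO1 and COL3A1 3.48-fold lower, beside the 15.9% and 15.1% above. The sum of the 6 markers was 100 to 108 CPM in the modified libraries. The sum was 190 CPM in parental cells and 163 CPM in Kelly, where DCN was 507-fold lower than in parental cells (290.0 to 982) and COL1A1 7.62-fold higher (6.84 to 8.52). The part of these markers in the results was not tested.

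The 250 bases upstream of the RefSeq transcription start are printed for HES1 and HES6, whose RNAs form the repressor and antagonist pair described below. Capitals in the HES1 promoter (GRCh38.p14, chr3:194135898-194136147, plus strand) mark TGGGAA, the core recognised by RBPJ. Capitals in the HES6 promoter (chr2:238240039-238240288, minus strand) mark CAGCTG, a form of the E-box that basic helix-loop-helix factors bind.
HES1: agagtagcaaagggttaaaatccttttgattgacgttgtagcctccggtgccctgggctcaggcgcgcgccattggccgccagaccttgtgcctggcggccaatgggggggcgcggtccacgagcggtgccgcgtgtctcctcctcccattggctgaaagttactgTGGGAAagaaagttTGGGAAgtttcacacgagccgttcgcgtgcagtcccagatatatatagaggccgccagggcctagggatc
HES6: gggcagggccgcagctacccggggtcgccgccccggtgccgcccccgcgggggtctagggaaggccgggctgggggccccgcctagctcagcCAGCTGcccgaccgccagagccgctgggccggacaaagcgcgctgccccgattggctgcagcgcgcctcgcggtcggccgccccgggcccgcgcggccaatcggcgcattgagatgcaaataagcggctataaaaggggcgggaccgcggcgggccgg

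The HES1 promoter held 2 RBPJ cores, whose matches begin 84 and 70 bases before the start. It also held 3 N-boxes (CACNAG), the motif bound by HES repressors themselves, and none of these matches overlapped an RBPJ core. The HES6 promoter held a single E-box, 158 bases before the start, and neither of the other motifs. Motifs were searched on both strands in the 7 members with an entry in the sequence table (NOTCH1, NOTCH2, NOTCH3, JAG1, JAG2, HES1 and HES6). The RBPJ core was found in 1 of these 7 and in 20.8% of all 35116 promoters, the E-box in 1 of 7 and 14.0%, and the N-box in 2 of 7 (HES1 and NOTCH3) and 32.0%. A match describes the letters of the window and is not a measured binding site.

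**Figure D1:**
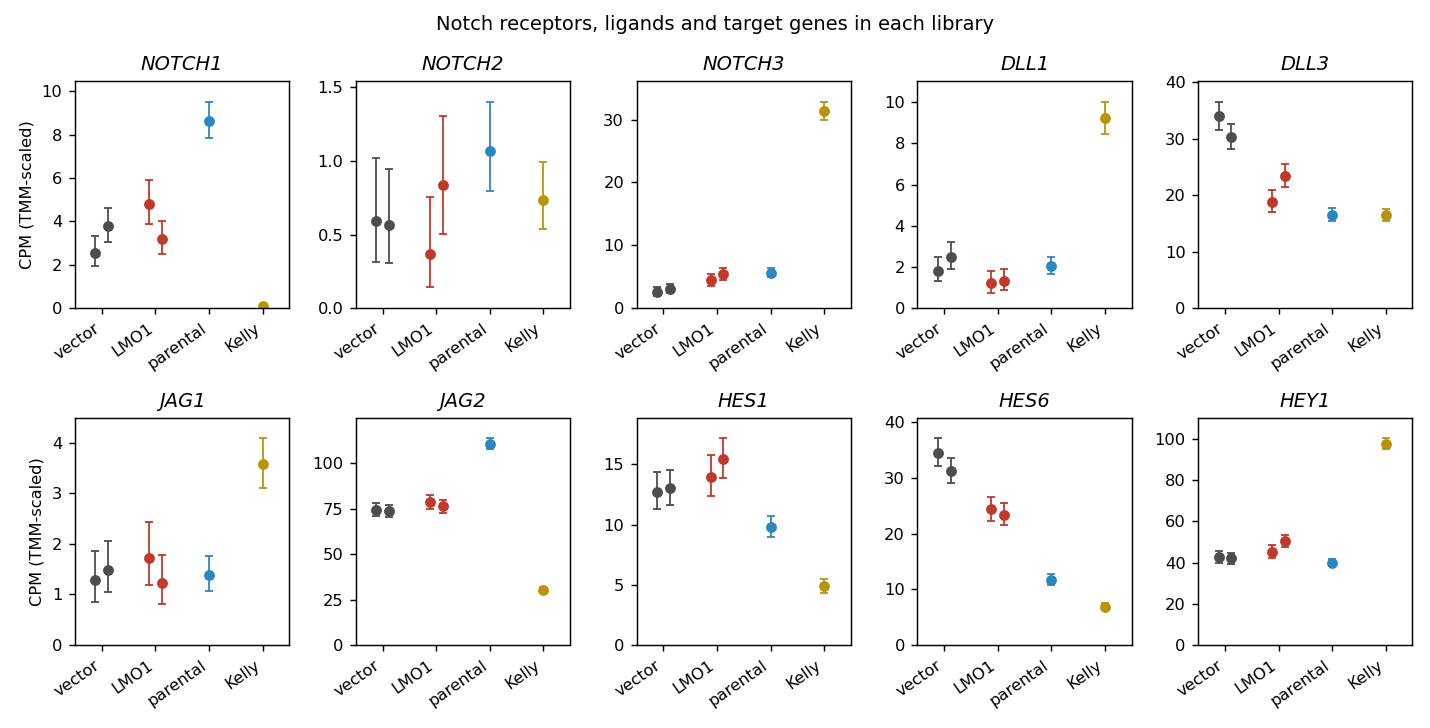
TMM-scaled CPM of the 10 genes, one panel per gene with a linear axis from 0. Each point is a library and each bar its exact 95% Poisson interval (counting error only). Kelly stands far above BE2C for NOTCH3 and DLL1 and far below it for NOTCH1 and JAG2, while DLL3 and HES6 are highest in the vector libraries.

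The effect of forced LMO1 was read in BE2C cells against the vector. Of the 10 genes, NOTCH3 and HEY1 rose and DLL3 and HES6 fell, and the other 6 did not pass the test. All 4 changes were small, at most 1.73-fold. A count of 4 in 10 stands beside a background of 31% of all 15480 genes tested (15.9% higher and 15.1% lower), so the share of Notch genes called was near that of genes at large. All 10 passed the filter on low counts. Their median log2 fold change was 0.09, against 0.00083 over all genes tested. For 7 of the 10 the LMO1 and vector libraries did not overlap, beside 63.7% of all genes tested.

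Among the receptors, NOTCH3 moved. It was at 4.45 and 5.41 CPM in the LMO1 libraries and 2.66 and 3.06 CPM in the vector libraries. Both LMO1 libraries were above both vector libraries, and the parental library (5.67 CPM) was above all 4. NOTCH3 rose by 0.79 on the log2 scale (SE 0.228, edgeR adjusted p = 0.00589). It rested on 85 and 123 reads with LMO1 and 58 and 76 reads with vector. The call was lost without LMO1 replicate 2 (edgeR adjusted p = 0.134), without vector replicate 1 (edgeR adjusted p = 0.0508) and with DESeq2 (adjusted p = 0.055), with the direction kept each time.

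NOTCH1, the receptor best known from T-cell leukaemia, was at 4.82 and 3.21 CPM with LMO1 and 2.57 and 3.78 CPM with vector. These values overlapped, and the log2 fold change of 0.32 (SE 0.248) did not pass the test (edgeR adjusted p = 0.35). NOTCH2 had between 7 and 19 reads in each of these 4 libraries, or 0.367 to 0.836 CPM, and a log2 fold change of 0.09 (SE 0.544). NOTCH2 has close partial copies in the human genome, so its reads are uncertain.

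Among the ligands, DLL3 fell. DLL3 is a divergent ligand that stays largely inside the cell, dampens Notch in the cell that makes it, and is abundant in neuroendocrine tumours. It was at 18.9 and 23.4 CPM with LMO1 and at 34.0 and 30.3 CPM with vector. Every LMO1 value lay below every vector value, a log2 fold change of -0.59 (SE 0.0952, edgeR adjusted p = 2.22e-06). The fall was called under all 12 alternatives, with log2 values from -0.76 to -0.45. The parental library, at 16.5 CPM, was below all 4 modified libraries.

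DLL1, a classical activating ligand, was at 1.20 and 1.32 CPM with LMO1 and 1.83 and 2.50 CPM with vector. The groups did not overlap, but on 23 to 62 reads per library the log2 fold change of -0.77 (SE 0.345) did not pass the test (edgeR adjusted p = 0.0846). JAG2, a classical ligand of the Jagged family, was at 78.6 and 76.3 CPM with LMO1 and 74.4 and 73.6 CPM with vector. Both LMO1 libraries were slightly above both vector libraries, but the log2 fold change of 0.07 (SE 0.0547) did not pass the test (edgeR adjusted p = 0.347). JAG1, its paralogue, was at 1.73 and 1.23 CPM with LMO1 and 1.28 and 1.49 CPM with vector, which overlap (edgeR adjusted p = 0.892).

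Of the target-family genes, HES6 fell and HEY1 rose. HES6 was at 24.4 and 23.4 CPM with LMO1 and 34.6 and 31.3 CPM with vector. The groups did not overlap. HES6 fell by 0.46 on the log2 scale (SE 0.0873, edgeR adjusted p = 4.60e-05), a fall called under all 12 alternatives. The parental library held only 11.8 CPM.

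HEY1 was at 45.2 and 50.5 CPM with LMO1 and 42.6 and 42.0 CPM with vector. The rise was small, at a log2 fold change of 0.19 (SE 0.0716, edgeR adjusted p = 0.0399), and 6 of 12 alternatives lost the call. Among them were leaving out LMO1 replicate 2 (log2 0.10, edgeR adjusted p = 0.358), vector replicate 1 (edgeR adjusted p = 0.103) and vector replicate 2 (edgeR adjusted p = 0.167). HES1 was at 14.0 and 15.5 CPM with LMO1 and 12.7 and 13.0 CPM with vector. The LMO1 libraries were the higher pair, but the log2 fold change of 0.20 (SE 0.123) did not pass the test (edgeR adjusted p = 0.221).

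For each HES1 read there were 1.74 and 1.52 HES6 reads in the LMO1 libraries and 2.71 and 2.41 in the vector libraries. The counting intervals of the LMO1 libraries (1.495 to 2.03 and 1.32 to 1.74) did not reach those of the vector libraries (2.36 to 3.12 and 2.11 to 2.75). The ratio was 1.20 (1.06 to 1.36) in parental BE2C and 1.40 (1.21 to 1.64) in Kelly. These genes are of nearly equal length, 2037 and 2062 bases of exon.

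**Figure D2:**
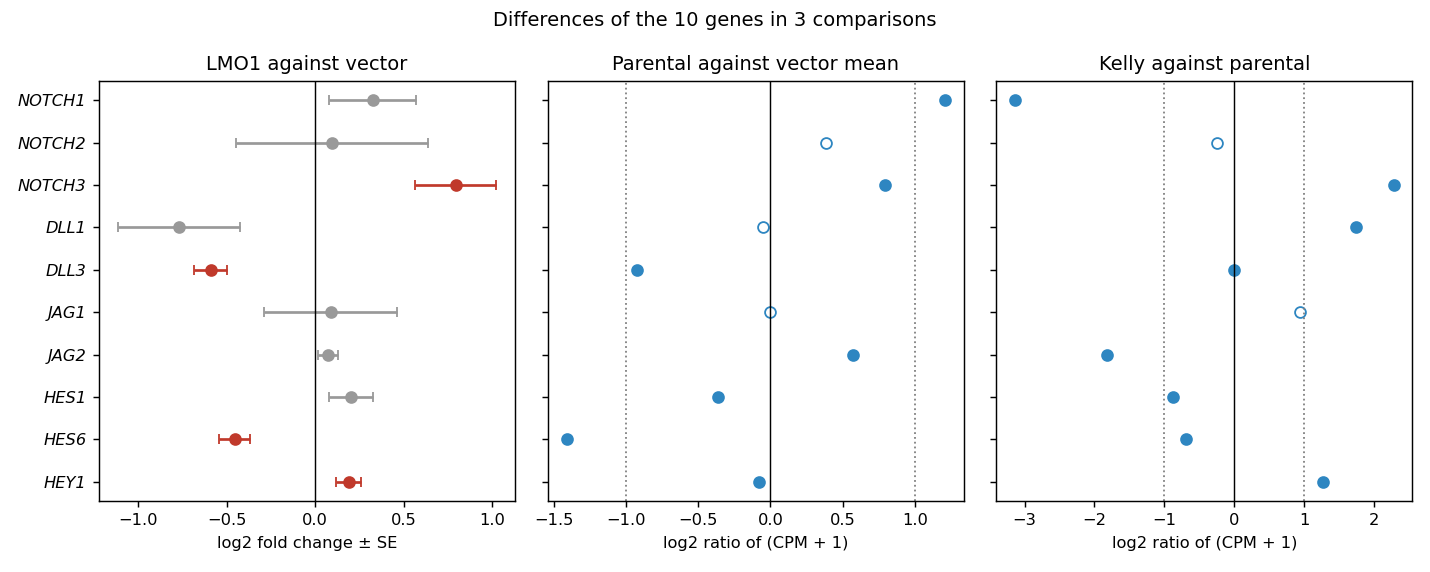
Differences of the 10 genes in 3 comparisons. Left, log2 fold change of LMO1 against vector ± SE from edgeR (red, adjusted p below 0.05). Middle and right, log2 ratios of (CPM + 1) with single libraries, where open points are genes under 5 CPM on both sides and dotted lines mark 2-fold. DLL3 and HES6 lie left of 0 in the first 2 panels, and NOTCH1 and NOTCH3 lie on opposite sides in the Kelly panel.

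Parental BE2C was set beside the vector mean to place the control, without a test because it is a single library. This comparison shares the vector libraries with the LMO1 comparison and the parental library with the Kelly comparison, so their values are given side by side only. Of the 7 Notch genes that reached 5 CPM in parental cells or the vector mean, NOTCH1 was over 2-fold higher and HES6 over 2-fold lower in parental cells (background 8.79% higher and 2.58% lower). NOTCH1 had 8.64 CPM there against a vector mean of 3.17, a ratio of 2.69 (counting interval 2.23 to 3.26). NOTCH1 and NOTCH3 reached 5 CPM through the parental library only, so these counts are a description. HES6 was 2.79-fold lower (2.53 to 3.08) and DLL3 1.94-fold lower (1.78 to 2.12) than in the vector mean. HEY1 was at 39.9 CPM, close to its vector mean of 42.3. For DLL3 and HES6 the vector libraries were thus the highest of the BE2C libraries, with the LMO1 libraries between vector and parental. The parental library belongs to the separately registered set, and the part of the set in these ratios was not tested.

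The parental library stood apart in another respect. Across 11067 genes its log2 ratio to the vector mean rose with transcript length (Spearman's rho 0.343, across genes, which are not independent replicates), with medians of -0.20 among the shortest genes and 0.27 among the longest (lowest and highest 25%). NOTCH1 and JAG2 (1.49-fold higher in parental) have longest transcripts of 9306 and 5835 bases. Those of HES6 and DLL3 have 1600 and 2332 bases. Among the other members, NOTCH3 (8666 bases) had a ratio of 1.98, HEY1 (2296 bases) 0.945 and HES1 (1578 bases) 0.761. NOTCH2 (11389 bases), JAG1 (5940 bases) and DLL1 (3174 bases), all under 5 CPM on both sides, had ratios of 1.85, 0.992 and 0.939. The part of length in these differences was not tested. In LMO1 against vector the same rho was -0.0021, and in Kelly against parental 0.0146.

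Kelly cells carried a different set of receptors and ligands. Of the 8 Notch genes that reached 5 CPM in Kelly or parental BE2C, NOTCH3, DLL1 and HEY1 were over 2-fold higher in Kelly and NOTCH1 and JAG2 over 2-fold lower. The remaining members of the 8 were DLL3, HES1 and HES6. NOTCH1, DLL1 and HES1 passed that limit on one side only, and NOTCH2 and JAG1 did not pass. The background was 15.3% of genes higher and 13.4% lower. Each line gave a single library here, so no test was made, and ratios below carry counting intervals only.

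NOTCH1 was nearly absent from Kelly, with 6 reads (0.101 CPM, interval 0.0370 to 0.219) against 413 reads in parental BE2C. That is 85.8-fold lower (39.1 to 235). NOTCH3 went the other way, from 5.67 CPM in parental cells to 31.4 CPM in Kelly, 5.53-fold higher (4.87 to 6.31). NOTCH2 was low in both lines, at 0.738 and 1.07 CPM. Against all 5 BE2C libraries, NOTCH1 was at least 2-fold below the lowest (2.57 CPM), beside 9.25% of 12817 genes. NOTCH3 was at least 2-fold above the highest (5.67 CPM), beside 11.5%. Of these BE2C libraries only the parental one was registered in the same set as Kelly.

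Per kilobase of exon, NOTCH3 made up 98.4% of the summed NOTCH1, NOTCH2 and NOTCH3 level in Kelly, and NOTCH1 0.286%. In parental BE2C the shares were 40.2% and 55.5%. NOTCH3 took 47.5% ± 3.55 (SD, n = 2) in the vector and 55.5% ± 8.65 (n = 2) in the LMO1 libraries. As a share of reads, NOTCH3 had 97.4% in Kelly (exact interval 96.6 to 98.1) and 36.9% in parental cells (33.4 to 40.5). With LMO1 it had 46.2% (38.8 to 53.7) and 57.2% (50.3 to 63.9), and with vector 45.7% (36.8 to 54.7) and 41.3% (34.1 to 48.8). Both LMO1 shares of reads were above both vector shares of reads, unlike the shares per kilobase. The interval of LMO1 replicate 2 did not reach that of vector replicate 2, while LMO1 replicate 1 lay within the interval of vector replicate 1.

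The mesenchymal state is the one linked to NOTCH3 in background above. Its 10 markers summed to 703 and 713 CPM with LMO1, 765 and 781 CPM with vector and 713 CPM in parental cells, but to 241 CPM in Kelly. Most of the sum in BE2C was VIM, the intermediate filament vimentin, which had 566 CPM in parental BE2C but 85.1 CPM in Kelly. SNAI2 had 14.0 CPM in parental cells and 0.537 CPM in Kelly, and FN1 had 114 and 34.6 CPM. ITGA5, a fibronectin-binding integrin subunit, went the other way, from 3.79 CPM in parental cells to 99.96 CPM in Kelly, and CD44, a hyaluronan receptor, had 7.89 and 13.0 CPM. Of the 5 markers that reached 5 CPM in either library, 1 was over 2-fold higher in Kelly and 3 were over 2-fold lower. The backgrounds were 15.3% and 13.4%. ITGA5 reached 5 CPM through Kelly only and SNAI2 through parental cells only, so these counts are a description. In LMO1 against vector 7 of the 10 markers were tested. ITGA5 (5.07-fold) and CD44 (2.62-fold) were called higher and FN1, fibronectin, 2.36-fold lower. Among all genes tested, 15.9% were called higher and 15.1% lower. The part of these markers in the Notch values was not tested. PRRX1, a defining mesenchymal factor, was at 1.41 CPM in Kelly and at most 0.105 CPM in BE2C, and MEOX1 had no read in Kelly. WWTR1 had 77 reads in parental cells and 6 reads in Kelly.

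Ligands also differed in kind. JAG2 was 3.63-fold lower in Kelly (3.44 to 3.83), at 30.4 CPM against 111 CPM in parental and 73.6 to 78.6 CPM in the modified BE2C libraries. DLL1 was 4.49-fold higher (3.62 to 5.63), at 9.21 CPM, and was at most 2.50 CPM in every BE2C library. JAG1 reached 3.57 CPM in Kelly against 1.38 CPM in parental cells, a ratio of 2.59 (1.95 to 3.46). DLL3 was at 16.5 CPM in both lines, a ratio of 0.999 (0.909 to 1.098). Against the vector mean, however, DLL3 was lower in Kelly, at a log2 ratio of -0.92.

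Per kilobase, JAG2 made up 70.9% of the summed level of the 4 ligands in parental BE2C and DLL3 25.9%. In Kelly DLL3 led with 44.1%, JAG2 had 33.3%, and DLL1 had 19.97%, against 2.61% in parental cells. In the vector libraries DLL3 had 49.8% ± 2.15 (SD, n = 2) and JAG2 46.9% ± 1.37, while with LMO1 JAG2 had 58.5% ± 3.93 and DLL3 38.8% ± 4.11. The JAG2 share was higher in both LMO1 libraries than in both vector libraries, and of the genes behind it DLL3 fell while JAG2 did not pass the test.

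**Figure D3:**
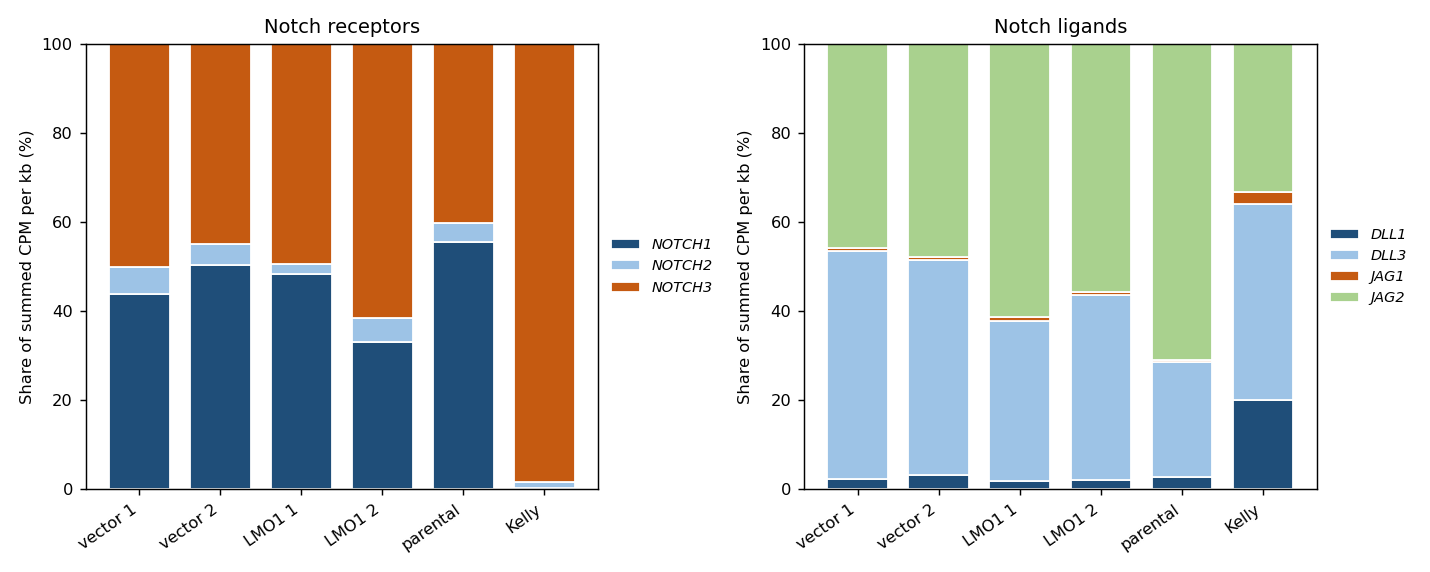
Shares of the summed CPM per kilobase of exon in each library, in percent. Left, receptors (NOTCH1, NOTCH2 and NOTCH3, without NOTCH4). Right, ligands (DLL1, DLL3, JAG1 and JAG2). Among these receptors Kelly holds almost only NOTCH3, at 98.4%, and among these ligands it has the largest DLL1 share, at 19.97%.

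The target-family genes split between the lines. HEY1 had 39.9 CPM in parental BE2C and 97.8 CPM in Kelly, 2.45-fold higher (2.32 to 2.58). HES1 was lower in Kelly, at 4.90 CPM against 9.80 CPM, 1.999-fold (1.72 to 2.32), and HES6 was at 6.88 CPM against 11.8 CPM, 1.71-fold lower (1.503 to 1.95). Against the vector mean HES6 was further below, at a log2 ratio of -2.11 in place of -0.70. HES1 and HES6 were both lowest in Kelly among the 6 libraries, and HEY1 was highest there.

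The 6 other HES and HEY genes summed to 2.29 to 4.49 CPM in the BE2C libraries and 19.7 CPM in Kelly. HEYL, a HEY1 relative, had 14.2 CPM in Kelly but 0.523 CPM in parental cells, a ratio of 27.2 (18.3 to 42.3). HES7, the somite-clock repressor, named after its values were seen, had 298 reads in Kelly (5.00 CPM) and 8 reads in parental cells. HEYL and HES7 reached 5 CPM through Kelly only. Of the 6 genes in this group 2 were tested in LMO1 against vector, and neither was called.

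The order of levels was read per kilobase of exon, in CPM per kilobase. In the vector libraries it ran from HES6 (16.2 ± 1.12, SD, n = 2) and HEY1 (13.1 ± 0.121) through DLL3 (12.3 ± 0.987), JAG2 (11.6 ± 0.0932) and HES1 (6.24 ± 0.0896) to DLL1 (0.671 ± 0.145). NOTCH1 (0.306 ± 0.0829), NOTCH3 (0.304 ± 0.0302), JAG1 (0.149 ± 0.0157) and NOTCH2 (0.0345 ± 0.0014) followed. The neighbours DLL3 and JAG2, and NOTCH1 and NOTCH3, overlapped between libraries. With LMO1, HEY1 led (14.8 ± 1.17), HES6 came after JAG2, and NOTCH3 (0.525 ± 0.0725) was the highest of the receptors among these genes. There the overlapping neighbours were JAG2 and HES6, DLL3 and HES1, and DLL1 and NOTCH1.

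In parental BE2C, JAG2 led with 17.3 CPM per kilobase, ahead of HEY1 with 12.4. In Kelly, HEY1 led with 30.2 and NOTCH3, at 3.34, overlapped HES6 at 3.38 in its counting interval. Summed RNA of the member ligands exceeded that of the member receptors in every library. Receptors and ligands outside the members, such as NOTCH4, are not in these sums. The summed ligand level was 24.0 to 25.3 CPM per kilobase with vector, 20.05 and 21.4 with LMO1, 24.4 in parental cells and 14.3 in Kelly. The summed receptor level was 0.566 and 0.724 with vector, 0.960 and 0.936 with LMO1, 1.5004 in parental cells and 3.39 in Kelly.

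Across the 6 libraries some of the 10 genes fell into opposing patterns, given as a description, since 5 of the 6 libraries are of 1 line. NOTCH2 followed no other member closely, with a highest Pearson's r of 0.280 (NOTCH3). NOTCH3 and HEY1 had a Pearson's r of 0.947 on the log2(CPM + 1) scale, NOTCH1 and JAG2 0.978, and HES1 and HES6 0.884. HEY1 and JAG2 were opposed at -0.951. The genes outside the set nearest to HES1 in pattern were PRDX2, a peroxiredoxin, DNASE1L1 and NCAM2, a neural cell adhesion molecule, with root mean square differences of 0.0295, 0.0522 and 0.0533 in log2 among 7211 genes. Nearest to HES6 were MIRLET7DHG, ZBTB20, a zinc-finger repressor, and HIST1H3E, at 0.130, 0.131 and 0.141 among 4718 genes. HIST1H3E reads are uncertain because histone genes are near copies of one another.

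The rest of the pathway was read through a list of 72 symbols in 9 role groups, of which 71 were in the table and 63 were tested in LMO1 against vector. On this list 6 genes were higher and 15 lower with LMO1, beside backgrounds of 15.9% and 15.1%, and the median log2 fold change was -0.016. With DESeq2 12 were called, 2 higher and 10 lower. The lower genes were mostly nuclear: 5 of 9 in the co-activator complex (with 1 higher), 5 of 11 co-repressors and 4 of 7 proneural factors and partners.

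DLK1, a secreted or membrane-bound ligand relative that lacks the receptor-activating domain, rose. It was at 945 and 917 CPM with LMO1 and 686 and 652 CPM with vector, a log2 fold change of 0.48 (SE 0.027, edgeR adjusted p = 7.82e-20). The LMO1 libraries were well above the vector libraries, and the parental library was lower still at 472 CPM. Kelly held 2200.3 CPM, 4.66-fold more than parental cells (4.60 to 4.73).

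In each of 3 groups of surface and processing machinery a single gene was called. Of the genes tested this was 1 of 5 in glycosylation, 1 of 6 in ligand endocytosis and 1 of 9 proteases, beside 31% of all genes tested. RFNG, a Fringe glycosyltransferase that tunes ligand choice, rose by 0.32 (SE 0.118), NEURL1B, a ubiquitin ligase of ligand endocytosis, by 0.15 (SE 0.052), and PSEN2, a catalytic gamma-secretase subunit, by 0.48 (SE 0.154). Each lost its call with DESeq2 (adjusted p = 0.155, 0.122 and 0.104). RFNG was not called without LMO1 replicate 1, LMO1 replicate 2 or vector replicate 1 (edgeR adjusted p = 0.166, 0.0566 and 0.248), nor NEURL1B without LMO1 replicate 1 or vector replicate 1 (edgeR adjusted p = 0.325 and 0.232). PSEN2 was not called without LMO1 replicate 2 or vector replicate 2 (edgeR adjusted p = 0.243 and 0.179).

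In the nuclear complex, EP300 and CREBBP, paralogous histone acetyltransferases recruited by Notch, fell by 0.31 (SE 0.0609) and 0.34 (SE 0.0779). EP300 was at 53.6 and 54.8 CPM with LMO1 and 67.9 and 67.6 CPM with vector, while the parental library held 247 CPM. CREBBP was at 31.7 and 30.9 CPM with LMO1, 40.7 and 38.7 CPM with vector and 166 CPM in parental cells. The gap between the vector and parental libraries was thus far wider than that between vector and LMO1. RBPJ itself rose slightly, from a vector mean of 51.0 to 57.9 CPM (edgeR adjusted p = 0.0208), with 113 CPM in parental cells and 212 CPM in Kelly. That call was lost with DESeq2 (adjusted p = 0.105) and on leaving out LMO1 replicate 1 (edgeR adjusted p = 0.118) or either vector library (edgeR adjusted p = 0.135 for replicate 1 and 0.0656 for replicate 2). RBPJ is named here after its values were seen, as the factor whose site is printed above.

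The Groucho-family co-repressors TLE3 and TLE2, partners of HES proteins, fell by 0.55 (SE 0.0709) and 0.57 (SE 0.0962). TLE3 was at 35.1 and 38.1 CPM with LMO1 and 53.9 and 53.8 CPM with vector, and TLE2 at 17.5 and 20.1 against 27.6 and 28.7 CPM. In each gene both LMO1 libraries were below both vector libraries, and both calls held under all 12 alternatives.

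In the role group listed as signal dampers, DTX3L rose and ITCH fell. The group name is a label of the list, and an effect of either gene on Notch was not tested. DTX3L, a Deltex-family ubiquitin ligase that interferon also induces, was at 14.8 and 15.4 CPM with LMO1 and 5.77 and 7.97 CPM with vector, a log2 fold change of 1.13 (SE 0.146, edgeR adjusted p = 1.81e-08). Kelly had 4 reads of it, 185-fold lower than parental cells (71.7 to 679.7). ITCH, a ligase that ubiquitinates Notch, fell by 0.14 (SE 0.046, edgeR adjusted p = 0.0199). That call was lost under 5 of 12 alternatives, among them leaving out LMO1 replicate 1, LMO1 replicate 2 or vector replicate 2 (edgeR adjusted p = 0.146, 0.107 and 0.234).

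Of the proneural factors and their partners, ID1 fell with LMO1. ID1, an inhibitor of basic helix-loop-helix factors, was at 46.3 and 48.6 CPM with LMO1 and 63.6 and 64.5 CPM with vector (log2 -0.43, SE 0.0639, edgeR adjusted p = 5.44e-07). Both LMO1 libraries were below both vector libraries, and the parental library was lower still at 39.6 CPM.

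**Figure D4:**
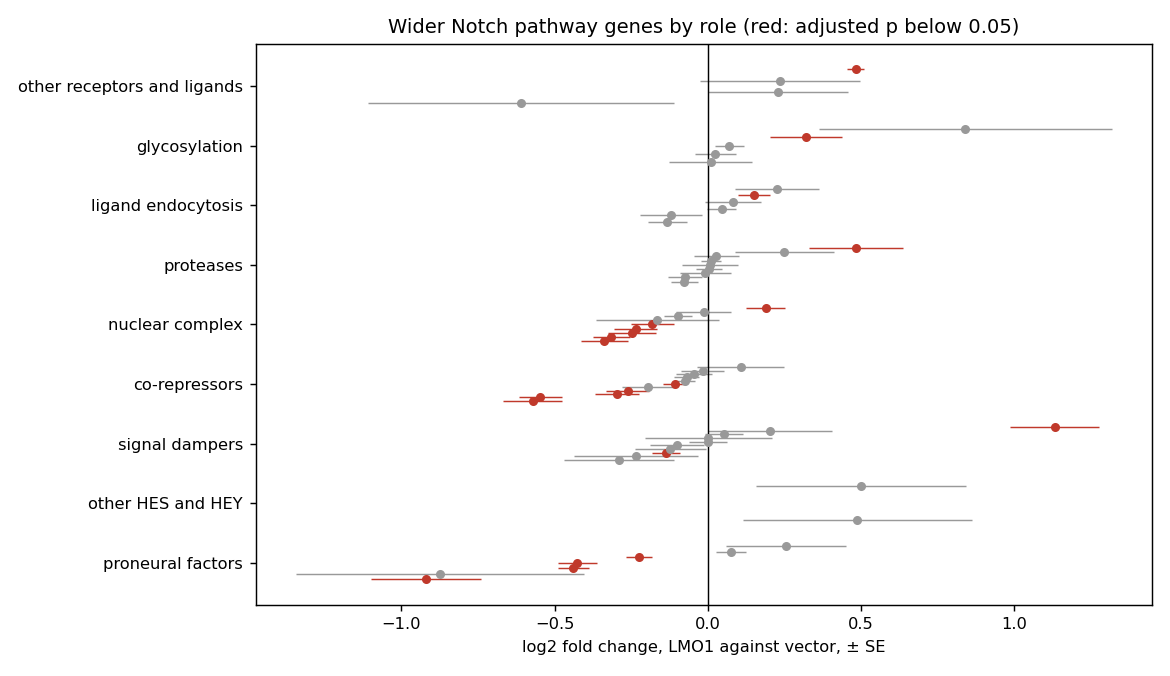
Log2 fold change of LMO1 against vector ± SE for the 63 tested genes of the wider list, by role. Red points passed an edgeR adjusted p of 0.05. Called genes of the nuclear complex, co-repressors and proneural factors lie left of 0 apart from RBPJ, and DTX3L lies farthest right.

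In Kelly against parental cells, 61 genes of the wider list reached 5 CPM in either library, of which 14 were over 2-fold higher and 10 over 2-fold lower in Kelly, beside backgrounds of 15.3% and 13.4%. A gene could reach 5 CPM through the library where it is high alone, as MFNG did through Kelly, so these counts are a description. MFNG, another Fringe, had 28.1 CPM in Kelly but only 0.712 CPM in parental cells, a ratio of 39.5 (28.1 to 57.2). APH1B, a gamma-secretase subunit, was 4.54-fold higher (3.99 to 5.17), the ligand endocytosis ligase MIB1 2.45-fold higher (2.38 to 2.54) and the acetyltransferase KAT2B 3.03-fold higher (2.68 to 3.44). TLE4 was 3.51-fold lower (3.36 to 3.66).

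NHLH1, a neuronal helix-loop-helix factor, was at 15.3 CPM in Kelly against 1.05 CPM in parental cells, so it reached 5 CPM through Kelly only. Bulk RNA cannot tell fewer cells of a kind from less RNA per cell, which holds for every difference reported here.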

How the data were processed

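RNA from 6 libraries of human neuroblastoma cell lines came as 1 deposited table of raw read counts, whole numbers with a row per gene symbol. The submitters' processing notes list TopHat2 2.0.6, HTSeq and hg19. For the annotation and the strand setting: not given in the sources used here. Total counts ran from 18737591 to 59512958 per library.

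Differences between LMO1 and vector libraries were tested with edgeR 4.0.16 (R 4.3.3) on counts of these 4 libraries: TMM scaling, filterByExpr (15480 genes tested, 9890 removed), a quasi-likelihood test, and Benjamini-Hochberg adjustment over all genes tested. In that fit the spread of each gene was drawn toward that of all genes, with 43.7 prior degrees of freedom beside 2 residual ones. The common biological coefficient of variation was 3.6%. The fit was checked on simulated data. CPM values were TMM-scaled over all 6 libraries. Comparisons with a single library on a side carry no test. Intervals are exact Poisson or Clopper-Pearson at 95%, and cover counting error only, because reads carried no molecular identifiers. Where no read was seen, up to 3 reads remain possible, or 0.160 CPM in the smallest library.

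Lengths came from the union of exons in GENCODE 29, on a later build than the counts, and promoter sequences from RefSeq on GRCh38.p14. The members and gene lists were chosen with earlier results of these data known. The genes named are the 10 members, up to 2 called genes with the lowest adjusted p in each role group of a wider pathway list, the 1 gene per role group with the largest Kelly to parental ratio, and the 3 genes nearest in pattern to HES1 and to HES6. A gene that this rule names is not reported here. Outside it, HES7, RBPJ, NOTCH4 and markers of cell types are named, chosen after their values were seen. Alternatives were limma-voom 3.58.1, DESeq2 1.42.0, other scalings and filters, all 6 libraries in the fit, a replicate block, and leaving out each library.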

Additional observations from a re-analysis of the deposited data

How the results depend on the processing

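LMO1 against vector gave 4797 called genes, 4 of the 10 Notch genes and 21 of the wider list. With DESeq2 these were 2970, 2 and 12, and the cause was not tested. Leaving out one library at a time gave 3493 to 3636 genes, 2 to 4 Notch genes and 15 to 17 of the wider list, with fewer samples in each fit, where the lone library is assumed to vary like the other group. The count of 2 came without LMO1 replicate 2 and without vector replicate 1, when neither NOTCH3 nor HEY1 was called. DLL3 and HES6 were called lower under all 12 alternatives. With the replicate block 4847 genes, 4 Notch genes and 21 of the wider list were called. The labels do not say that a replicate number marks a shared batch, and the deviations of same-numbered libraries had a correlation of -0.021 across 15480 genes, so the numbers were not read as pairs. Total-count scaling gave 2735 genes higher and 1853 lower, against 2463 and 2334 with TMM. Genes not called changed sign in some fits: NOTCH2 was at -0.0041 with limma-voom and ran from -0.65 to 0.53 with a library left out, and JAG1 from -0.17 to 0.32. A filter of 5 CPM left NOTCH1, NOTCH2, NOTCH3, DLL1 and JAG1 untested. In Kelly against parental cells 5 Notch genes were past 2-fold, and 6 with the vector mean as reference. With that reference HES1 (log2 -1.23) and HES6 (log2 -2.11) were also past 2-fold. NOTCH1 was not counted there, since it was under 5 CPM on both sides (0.101 CPM in Kelly and a vector mean of 3.17 CPM). NOTCH1 in Kelly moved from -3.13 to -5.45 in log2 with 0.1 CPM added in place of 1. Depth limits NOTCH2, JAG1 and DLL1 most, at 7 to 62 reads per modified library.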
